A study of Homo sapiens with 12 samples.

Results

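The genes described here are 34 members of the NRF2 antioxidant program, taken by name from a list of NRF2 regulators, classical NRF2 targets, thioredoxin and peroxiredoxin genes, and pentose phosphate enzymes. They are 34 of the 57167 distinct gene names in the count tables, and each of the 34 was found once in both tables. No measured value entered the rule that chose them, but the list was drawn up with earlier results of these data known. By role they were 4 regulators, 4 genes of heme and biliverdin metabolism, 5 of the thioredoxin and peroxiredoxin systems, 4 of NADPH supply, 9 of quinone, carbonyl and epoxide metabolism, 6 of conjugation and efflux, and 2 others (OSGIN1 and PIR).

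RNA was sequenced from the human neuroblastoma cell lines KELLY, in which MYCN is amplified, and SK-N-AS, in which it is not. KELLY cells received 1 µM Erastin and SK-N-AS cells 2 µM for 24 h, and DMSO was the control in each line, so that dose cannot be told apart from cell line. Each of the 4 groups had 3 samples (n = 3), which the methods describe as wells seeded in triplicate. Nothing says that the 3 were independent experiments, so that p-values measure the spread between these samples, which may be technical. Both lines were grown in RPMI with fetal bovine serum, and no transgene or knockdown was used in these samples. With 1 cell line of each MYCN status, line and MYCN status cannot be told apart.

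Erastin blocks system Xc, the antiporter that brings cystine into the cell in exchange for glutamate, and cystine loss limits glutathione synthesis. NRF2, the protein of NFE2L2, is held at a low level by KEAP1, which directs it to degradation, and oxidants or electrophiles that modify KEAP1 let it accumulate. NRF2 then binds antioxidant response elements together with a small MAF protein such as MAFG, at sites where BACH1 can act as a repressor. Its targets include reductases that use NADPH, the enzymes that supply NADPH, and transporters that export conjugates. HMOX1, which cleaves heme, is a target of NRF2 and is strongly repressed by BACH1.

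The total count per sample lay between 24169796 and 29835670. Levels are given as CPM (counts per 1000000 counts), scaled by the TMM method over all 12 samples. Replicate libraries had opposed GC trends. In KELLY, the Spearman correlation, over 11103 genes that are not independent, between a gene's GC content and its log2 level relative to the line's mean was -0.86, 0.75 and -0.51 with DMSO and 0.89, -0.71 and 0.27 with Erastin. Over the 31 members tested in KELLY it was -0.78, 0.68 and -0.45, and 0.87, -0.37 and 0.28. The libraries numbered 1 therefore stood at opposite ends in KELLY. In SK-N-AS the members' values ran from -0.58 to 0.64, with DMSO 1 and DMSO 3 at the ends. Without both KELLY libraries numbered 1, 13 of the 31 members changed sign in KELLY, and these are given below with both values. None of the 13 passed a threshold in either fit. Of the marker lists, 8 of 8 adrenergic genes were higher in KELLY and 6 of 6 mesenchymal genes were higher in SK-N-AS with DMSO, and TH lay between 1.60 and 3.31 CPM in all 6 SK-N-AS samples. The leukocyte gene PTPRC was at 454 to 620.3 CPM in SK-N-AS and at 0 in KELLY, whereas CD3E and LYZ were at 0 in all 12 samples and HBB reached 8.09 CPM in KELLY DMSO 1. PTPRC is not among the genes that define neuroblastoma cells, and the labelled identity of the SK-N-AS samples, which every SK-N-AS value rests on, was not tested beyond these markers.

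**Figure D1:**
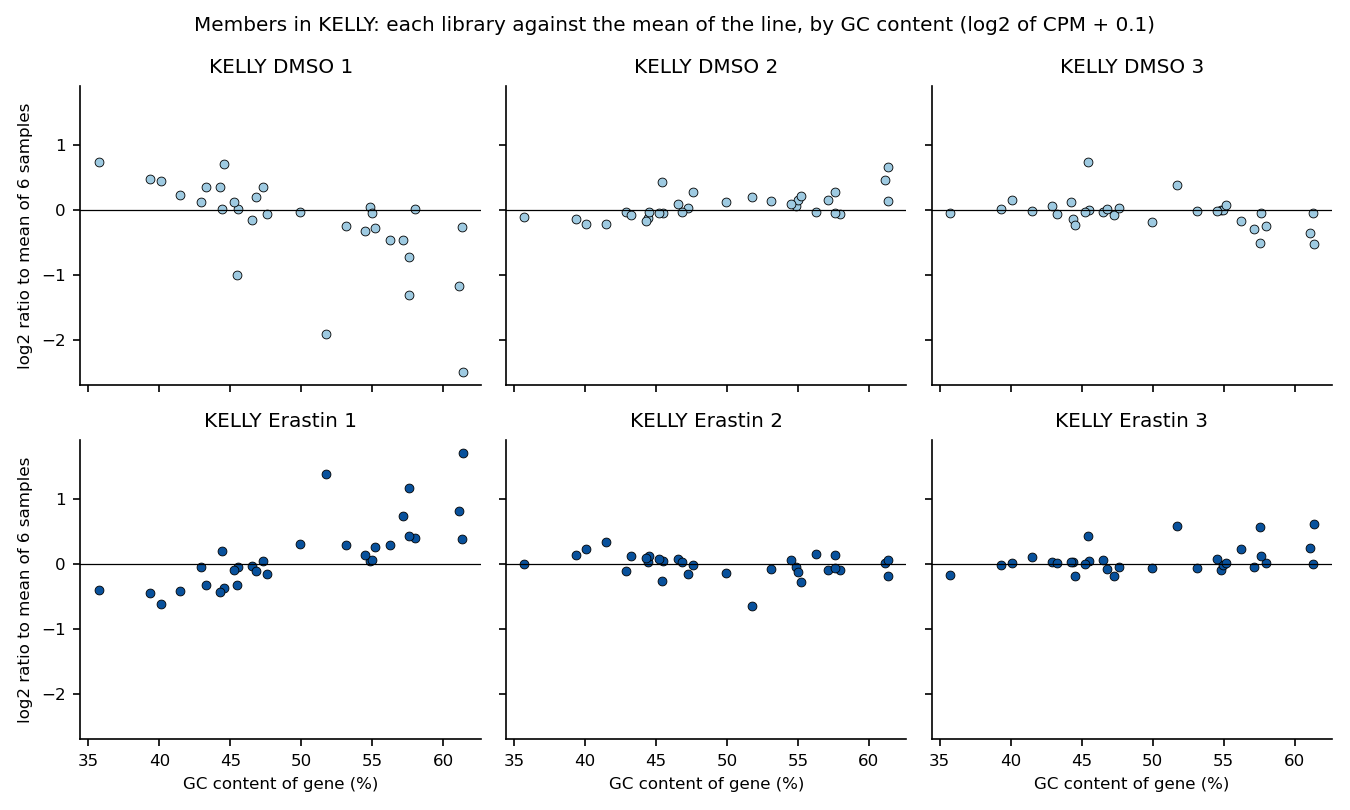
Each panel is 1 KELLY library; each point is a member gene, at its GC content (%, x axis) and its log2 ratio to the mean of the 6 KELLY samples (y axis, log2 of CPM + 0.1). High-GC members lie low in DMSO 1 and high in Erastin 1, whose Spearman correlations over the 31 members were -0.78 and 0.87.

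In SK-N-AS, Erastin raised the transcripts of HMOX1, TXNRD1 and NQO1. HMOX1 rose 3.76-fold, TXNRD1 1.52-fold and NQO1 1.35-fold. These were 3 of the 33 members tested, all higher, at a Benjamini-Hochberg adjusted p under 0.05 in edgeR's quasi-likelihood test, beside 0.659% of all genes tested (0.46% higher). At the study's own threshold (fold change of at least 1.5 and unadjusted p of at most 0.05), HMOX1 and TXNRD1 passed, beside 2.67% of all genes. At an unadjusted p of at most 0.05 alone, 8 members passed, all higher, where 8.77% of all genes did so in either direction and 3.9% higher. Besides the 3 above these were ME1, ABCC2, ABCC3, EPHX1 and OSGIN1. The 3 Erastin samples all lay above the 3 DMSO samples in 7 members and all below in 1 (BLVRA), beside 14.8% of all genes in either direction (6.98% higher and 7.81% lower). Of the 33 members, 23 had a positive log2 fold change and 10 a negative one, and their median was 0.10 beside -0.01 over all genes tested. Without the DMSO libraries 1 and 3, in a fit that assumes the lone control to vary like the Erastin samples, HMOX1, TXNRD1 and NQO1 had log2 fold changes of 1.82, 0.59 and 0.38 and still passed, and ME1 passed as well, beside 2.38% of all genes. The member that was not tested, AKR1B10, had too few counts.

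In KELLY, 0 of the 31 members tested had an adjusted p under 0.05 by edgeR, where 1 gene of 16258 did (0.00615%), and DESeq2 also called 0. At an unadjusted p of at most 0.05 it was 2 members, HMOX1 and EPHX1, both higher, where 2.64% of all genes passed in either direction and 1.59% higher. HMOX1 was the 1 member at the threshold of the methods, beside 2.03% of all genes. The groups did not overlap in 3 members (HMOX1, AKR1C2 and EPHX1), all higher with Erastin, beside 8.54% of all genes (4.2% higher and 4.34% lower). Log2 fold changes were positive in 17 members and negative in 14, with a median of 0.02 beside 0.01 over all genes. ABCC3, AKR1B10 and CBR3 were too low to be tested. Those same HMOX1, AKR1C2 and EPHX1 were also without overlap and higher in SK-N-AS, so that 3 of the 31 members tested in both lines had this pattern in both, beside 0.956% of 14338 genes. For AKR1C2 in KELLY the gap was a near tie, with the lowest treated samples barely above the highest control. The spread was wider in KELLY: the median within-group SD of the members' log2(CPM + 0.1) was 0.23 in KELLY and 0.12 in SK-N-AS.

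**Figure D2:**
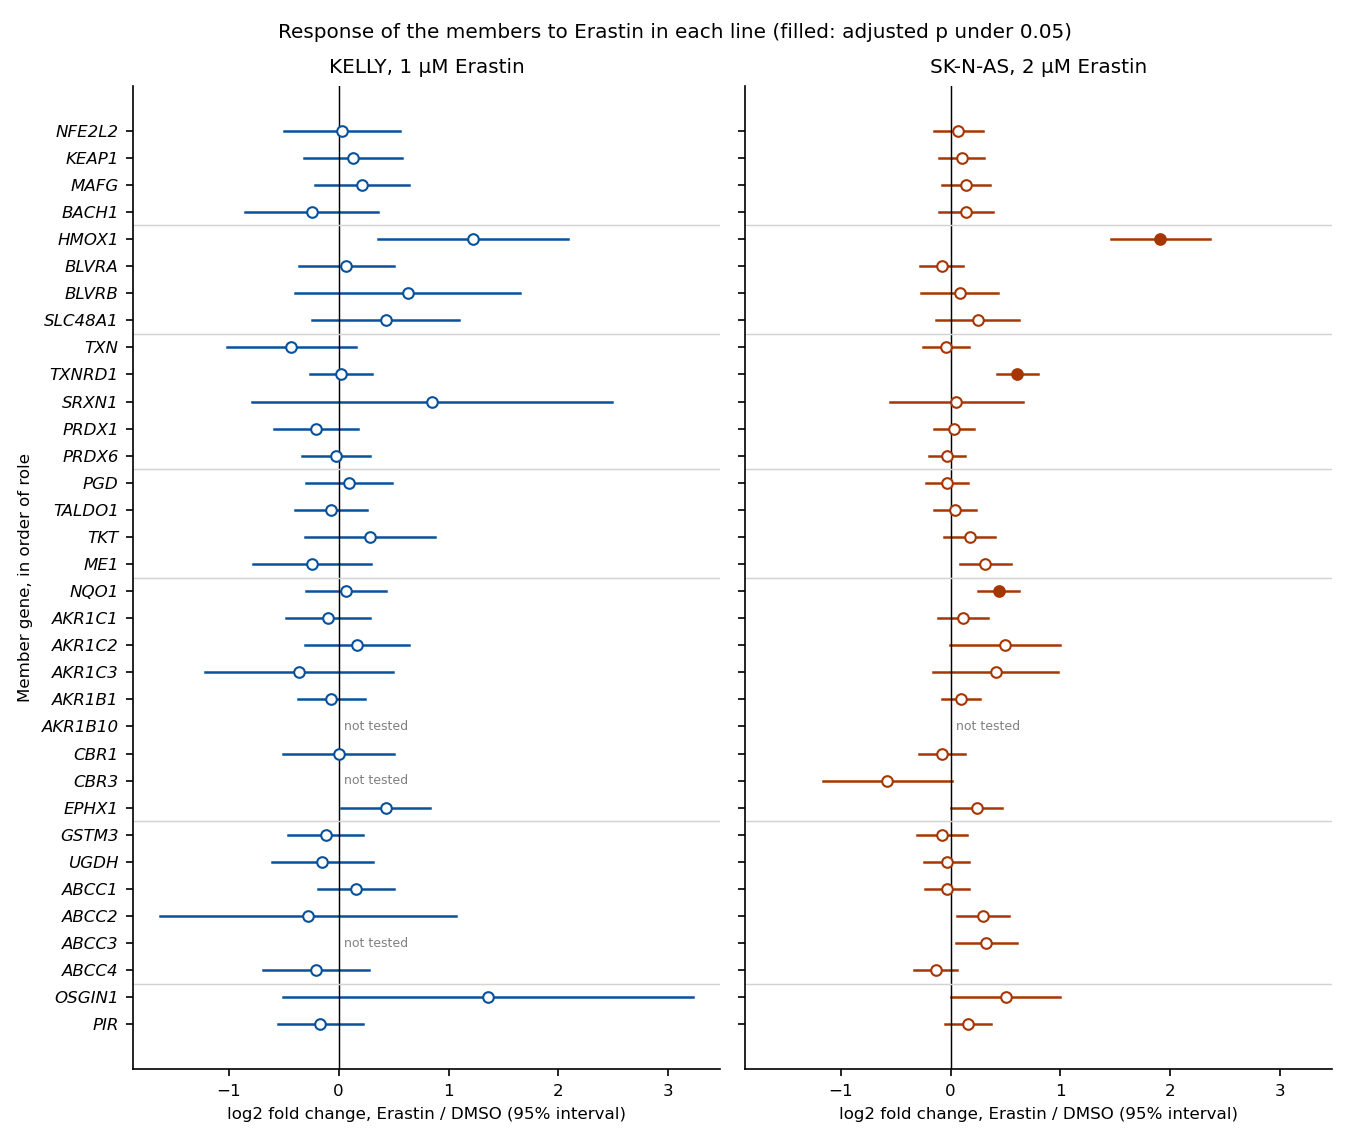
Points are the members' log2 fold changes (x axis, Erastin over DMSO, n = 3 in each group) with 95% intervals in KELLY (left) and SK-N-AS (right), ordered by role (y axis), with grey lines between roles. Filled points have an adjusted p under 0.05 and are HMOX1, TXNRD1 and NQO1, all in SK-N-AS; the widest intervals are those of OSGIN1, SRXN1 and ABCC2 in KELLY.

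None of the 4 regulators passed a threshold in either line without the GC correction. NFE2L2 (chr2:177218667-177392756, minus strand, GRCh38, GENCODE release 44) was at 158, 178 and 209 CPM in the SK-N-AS DMSO samples and at 180.02, 189.7 and 198 with Erastin. In KELLY it was at 76.5, 56.0 and 64.4 CPM with DMSO and at 48.6, 82.2 and 70.3 with Erastin. The groups overlapped in both lines, and the log2 fold changes were 0.07 in SK-N-AS (95% interval -0.15 to 0.29) and 0.03 in KELLY (-0.49 to 0.56). Without the libraries numbered 1 the KELLY value was 0.34 ± 0.14, and with the GC correction 0.21 ± 0.08 (standard errors, edgeR adjusted p = 0.979 and 0.640). Of its exon bases, 38.4% are shared with other genes, some of them antisense, so that reads there may be assigned otherwise. KEAP1, the adaptor that targets NRF2 for degradation, had 0.10 in SK-N-AS and 0.13 in KELLY. MAFG, the DNA-binding partner, had 0.14 and 0.21, and BACH1, the repressor, 0.14 and -0.24. Without the libraries numbered 1 the KELLY values were -0.14 for KEAP1, 0.11 for MAFG and 0.14 for BACH1, so that KEAP1 and BACH1 turned sign. With the GC correction, MAFG was at -0.10 in KELLY. In SK-N-AS, MAFG passed with that correction (0.16, edgeR adjusted p = 0.0261), where 6.55% of all genes passed. With a replicate block added, KEAP1, MAFG and BACH1 passed in SK-N-AS (edgeR adjusted p = 0.0352, 0.00787 and 0.0462), where 10.9% of all genes passed. Transcript counts do not measure the stability of the NRF2 protein.

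Among the genes of heme and biliverdin, HMOX1 (heme oxygenase 1, chr22:35380361-35394214, plus strand) stood apart from the other three. In SK-N-AS it was at 4.53, 4.13 and 2.93 CPM with DMSO and at 10.5, 17.0 and 15.8 with Erastin. Every treated sample lay above every control, on 78 to 123 counts per control library and 284 to 499 per treated library. The log2 fold change was 1.91 ± 0.21 (standard error, edgeR adjusted p = 4.57e-04, Benjamini-Hochberg), and it passed in 14 of 15 alternatives, the exception being all 12 samples in 1 fit, where edgeR's adjusted p was 0.0505. In KELLY it was at 6.34, 15.3 and 11.1 CPM with DMSO and at 35.5, 17.3 and 23.3 with Erastin. The groups did not overlap here either, but the lowest treated sample was close to the highest control. The log2 fold change was 1.22 ± 0.37 (standard error, 95% interval 0.36 to 2.09, edgeR adjusted p = 0.770).

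HMOX1 has a GC content of 57.6%, and its KELLY extremes were the libraries numbered 1, which stood apart in GC trend. Without those libraries the log2 fold change in KELLY was 0.63 (standard error 0.20), and with each library's GC trend removed it was 0.97 ± 0.17 (standard error, edgeR adjusted p = 0.113). Its direction was upward in all 15 alternatives, and it passed the threshold of the methods in all of them, with adjusted p from 0.113 to 1.00. In SK-N-AS the GC-corrected value was 1.93.

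The other genes of this role did not pass a threshold in either line. BLVRA and BLVRB, which reduce biliverdin to bilirubin, had log2 fold changes of -0.08 and 0.08 in SK-N-AS and of 0.07 and 0.63 in KELLY. BLVRA was the 1 member whose SK-N-AS groups did not overlap downward, at 43.7, 46.2 and 44.7 CPM with DMSO and 39.7, 43.2 and 43.4 with Erastin. SLC48A1, a heme transporter of endosomes and lysosomes, had 0.25 in SK-N-AS and 0.43 in KELLY. Without the KELLY libraries numbered 1, the KELLY values were -0.08 for BLVRA, 0.04 for BLVRB and -0.02 for SLC48A1.

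**Figure D3:**
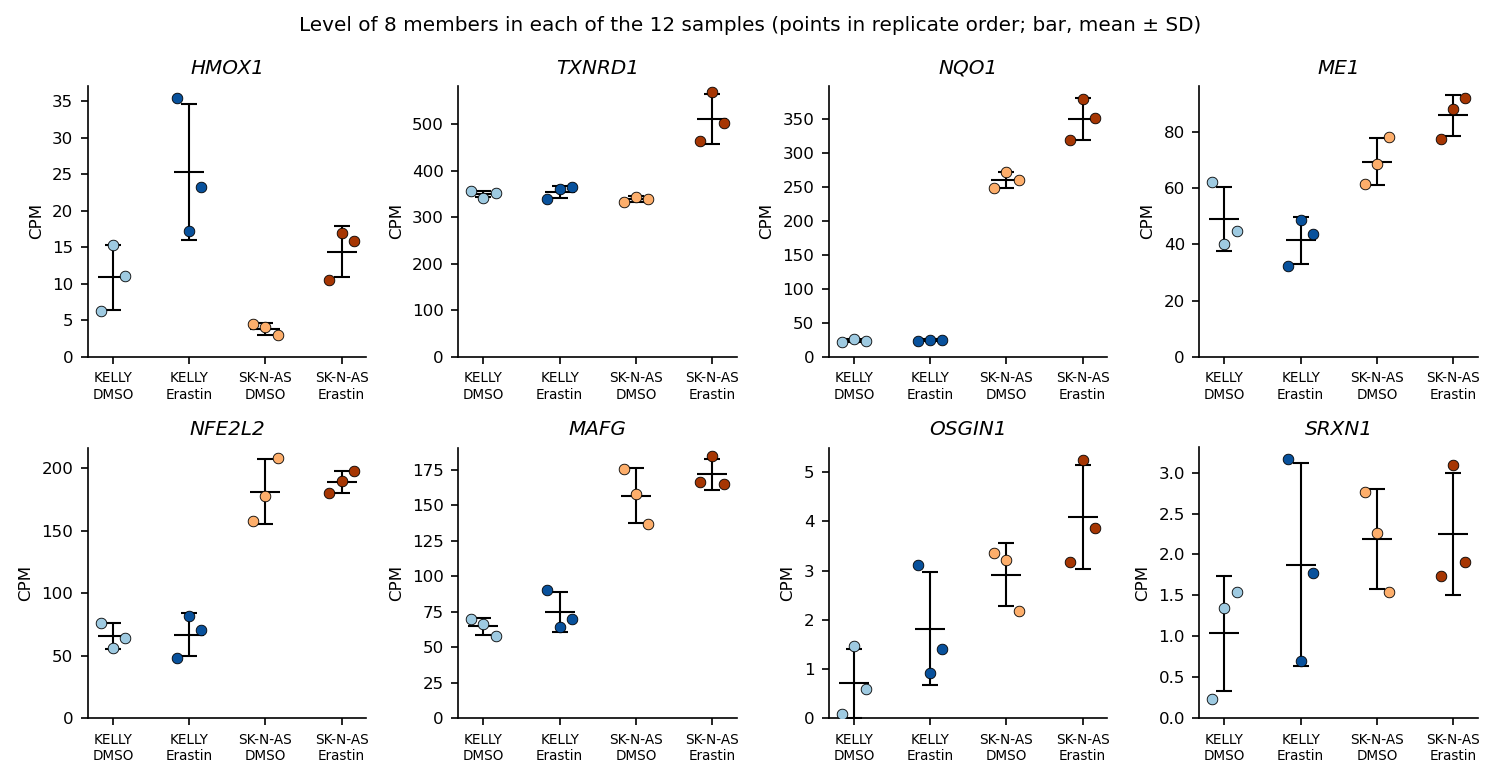
CPM (y axis, from 0) of 8 members in the 12 samples, by group (x axis); points are samples in replicate order and bars are mean ± SD (n = 3). In SK-N-AS the treated points of HMOX1, TXNRD1 and NQO1 lie above all of their controls, and in KELLY those of HMOX1 do, while the other panels overlap.

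Of the 5 thioredoxin and peroxiredoxin genes, TXNRD1 rose in SK-N-AS and the other 4 did not pass a threshold. TXNRD1 (cytosolic thioredoxin reductase, a selenoprotein that reduces thioredoxin with NADPH, chr12:104215779-104350307, plus strand) was at 332, 344 and 339 CPM in the SK-N-AS DMSO samples and at 464, 569.7 and 501 with Erastin. All treated samples lay above all controls by more than the range of the controls. The log2 fold change was 0.61 ± 0.08 (standard error, 95% interval 0.42 to 0.79, edgeR adjusted p = 0.00387), and it passed in all 15 alternatives, with a highest adjusted p of 0.0436. In KELLY it was at 356, 342 and 352 CPM with DMSO and at 339, 360.3 and 364 with Erastin. These groups overlapped, and the log2 fold change was 0.02 (95% interval -0.26 to 0.30), an interval that lies below the SK-N-AS estimate.

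TXN, thioredoxin itself, had -0.04 in SK-N-AS (95% interval -0.25 to 0.17) and -0.43 in KELLY, where DMSO 1 alone was high at 164 CPM and the other 5 samples lay between 74.5 and 98.1. TXN has the lowest GC content of the members at 35.7%, and its KELLY value was -0.01 without the libraries numbered 1. PRDX1 and PRDX6, peroxiredoxins that reduce peroxides, had 0.03 and -0.03 in SK-N-AS and -0.20 and -0.02 in KELLY, where PRDX6 was at 0.08 without the libraries numbered 1. SRXN1, sulfiredoxin, which repairs overoxidized peroxiredoxins, was barely counted: 6, 33 and 44 counts in the KELLY DMSO libraries and 77, 18 and 49 with Erastin. Its KELLY log2 fold change of 0.85 (standard error 0.71) became -0.21 without the libraries numbered 1. In SK-N-AS it was 0.05. Of the exon bases of SRXN1, 90.7% are shared with a readthrough gene, so that its counts may understate it.

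Of the 4 genes of NADPH supply, none passed an adjusted p under 0.05 in either line. ME1 (cytosolic malic enzyme, which makes NADPH from malate, chr6:83210402-83431051, minus strand) was at 61.6, 68.6 and 78.1 CPM in SK-N-AS with DMSO and at 77.6, 88.0 and 92.0 with Erastin. The lowest treated sample lay just under the highest control. The log2 fold change was 0.32 ± 0.11 (standard error, edgeR adjusted p = 0.340), and it was 0.31 with an adjusted p of 0.00566 from edgeR once the GC trend was removed, a setting in which 6.55% of all genes passed. In KELLY ME1 had -0.24, which became 0.12 without the libraries numbered 1. The pentose phosphate enzymes had values near 0 in SK-N-AS: PGD, which makes NADPH from 6-phosphogluconate, had -0.04, and TALDO1, transaldolase, had 0.04. TKT, transketolase, had 0.18 in SK-N-AS and 0.29 in KELLY. In KELLY, PGD had 0.09 and TALDO1 -0.07. Without the libraries numbered 1, the KELLY values of TKT and PGD turned to -0.09 and -0.13.

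The letters of 4 promoters are shown because they hold the core of the antioxidant response element, TGACNNNGC on either strand, in the 250 bases before the gene start. Of the 34 members, 27 had a RefSeq promoter window (GRCh38.p14), and 5 of these held the core (18.5%), beside 11.0% of 27305 windows. The 5 were TXNRD1, ME1, CBR1, ABCC4 and PGD. The windows below run 5′ to 3′ along the gene, with the core or its reverse complement in capitals.
TXNRD1 (chr12:104215655-104215713, plus strand, bases -124 to -66): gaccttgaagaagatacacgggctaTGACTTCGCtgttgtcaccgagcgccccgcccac
ME1 (chr6:83431155-83431213, minus strand, bases -162 to -104): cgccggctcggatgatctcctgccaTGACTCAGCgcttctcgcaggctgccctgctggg
CBR1 (chr21:36069840-36069898, plus strand, bases -184 to -126): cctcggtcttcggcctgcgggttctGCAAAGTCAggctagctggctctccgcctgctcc
ABCC4 (chr13:95301567-95301625, minus strand, bases -174 to -116): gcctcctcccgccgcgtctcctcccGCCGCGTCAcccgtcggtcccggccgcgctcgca

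The capitals of ME1 also hold TGACTCA, the AP-1 site, which 2 of the 27 windows held (ME1 and OSGIN1, 7.41%, beside 4.16% of all windows). Of the 4 genes whose letters are shown, TXNRD1 rose in SK-N-AS, while CBR1 and ABCC4 had log2 fold changes of -0.08 and -0.13 there. The core followed by an A, a longer form of the element, was in 1 window, that of CBR1 (3.70%, beside 2.65% of all), and TGATGNAA, the C/EBP-ATF element, was in 0 of 27, beside 3.19% of all. NQO1 had a window without the core, and HMOX1 was not among the windows searched. Elements farther than 250 bases upstream were out of reach of this search, so that a window without the core does not mean a gene without the element. A match is a description of these letters and not evidence of binding.

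NQO1 was the 1 quinone, carbonyl or epoxide enzyme with an adjusted p under 0.05, in SK-N-AS. It reduces quinones with NADPH or NADH in a single step that avoids radicals, and lies at chr16:69706996-69726668 on the minus strand. In SK-N-AS it was at 249, 272 and 259.8 CPM with DMSO and at 318, 379.8 and 351 with Erastin, without overlap. The log2 fold change was 0.44 ± 0.08 (standard error, edgeR adjusted p = 0.0362), but it passed in 10 of 15 alternatives: the adjusted p from edgeR rose to 0.174 without DMSO replicate 2, to 0.0721, 0.276 and 0.205 without Erastin replicates 1, 2 and 3, and to 0.312 with all 12 samples in 1 fit. In KELLY it was at 21.5, 25.7 and 23.4 CPM with DMSO and at 23.4, 25.3 and 25.1 with Erastin, which overlapped, and had 0.07 (95% interval -0.29 to 0.43). Of its exon bases, 19.4% are shared with an antisense gene.

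EPHX1, microsomal epoxide hydrolase, was at 33.1, 30.1 and 31.5 CPM in SK-N-AS with DMSO and at 35.3, 42.1 and 33.7 with Erastin. In KELLY it was at 13.0, 17.6 and 16.02 CPM and then 21.8, 19.8 and 21.0. The treated samples were all above the controls in both lines, and the log2 fold changes were 0.24 (standard error 0.11) and 0.43 (standard error 0.17), with adjusted p of 0.545 and 0.770 from edgeR. Its KELLY value was 0.28 without the libraries numbered 1.

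The aldo-keto reductases AKR1C1, AKR1C2 and AKR1C3 reduce steroids, prostaglandins and lipid aldehydes. Their log2 fold changes were 0.12, 0.50 and 0.41 in SK-N-AS and -0.10, 0.17 and -0.36 in KELLY, and none of these values passed a threshold. Without SK-N-AS Erastin replicate 2, AKR1C2 and AKR1C3 passed the threshold of the methods there. In KELLY, AKR1C3 was at 0.11 without the libraries numbered 1. AKR1C2 was at 1.47, 1.19 and 1.43 CPM with DMSO and at 2.10, 1.67 and 1.99 with Erastin in SK-N-AS, and at 3.23, 2.93 and 2.90 and then 3.65, 3.26 and 3.26 in KELLY, without overlap in either line. The coding sequences of AKR1C1 and AKR1C2 are identical at 98.0% of aligned bases, and 4.63% of the 150-base windows of AKR1C1 occur unchanged in AKR1C2, 150 bases being the read length. Reads may therefore have been split or dropped between them. AKR1B1, aldose reductase, had 0.10 and -0.07. The carbonyl reductase CBR1 had -0.08 and 0.00 (-0.27 in KELLY without the libraries numbered 1), and its paralog CBR3 had -0.57 in SK-N-AS (standard error 0.27) on an exon set of which 71.1% is shared with an antisense gene.

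Of conjugation and efflux, none of the 6 passed an adjusted p under 0.05. ABCC2 and ABCC3, exporters of glutathione and glucuronide conjugates, had log2 fold changes of 0.30 and 0.33 in SK-N-AS. ABCC2 was at 11.9, 13.7 and 13.2 CPM with DMSO and at 15.6, 15.9 and 15.9 with Erastin, without overlap. ABCC3 was at 53.5, 44.5 and 38.8 CPM and then 50.3, 64.7 and 55.3, which overlapped through DMSO 1. Their adjusted p was 0.406 and 0.462 from edgeR, and 0.0510 and 0.00703 after the GC correction. ABCC1 and ABCC4 had -0.04 and -0.13, GSTM3, a glutathione transferase, had -0.07, and UGDH, which makes UDP-glucuronate, had -0.04. In KELLY the 5 tested members of this role lay between -0.28 (ABCC2) and 0.16 (ABCC1). ABCC4 and UGDH had -0.21 and -0.15 there, and 0.08 and 0.12 without the libraries numbered 1.

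OSGIN1, an oxidative stress induced growth inhibitor, was low in both lines. The DMSO libraries of KELLY held 2, 36 and 17 counts of it, and the Erastin libraries 76, 24 and 39. The extremes were again the libraries numbered 1, and the log2 fold change of 1.36 (standard error 0.80) became 0.21 without them. OSGIN1 has a GC content of 61.4%. In SK-N-AS it was at 3.35, 3.22 and 2.18 CPM and then 3.17, 5.24 and 3.86, which overlapped, with 0.50 ± 0.23 (standard error, edgeR adjusted p = 0.555). PIR, a nuclear iron-binding protein, had 0.16 in SK-N-AS without overlap and -0.17 in KELLY.

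Whether the members responded differently in the lines was tested over all 12 samples as a treatment-by-line interaction, given as the SK-N-AS log2 fold change minus that of KELLY. By edgeR's quasi-likelihood test 0 of 33 members passed an adjusted p under 0.05, beside 0.00551% of 18165 genes, and 2 passed at an unadjusted p of at most 0.05 (TXNRD1 and NQO1, both positive), beside 4.24% of all genes (1.77% positive). For TXNRD1 the difference was 0.58 ± 0.13 (standard error, 95% interval 0.29 to 0.87, edgeR adjusted p = 0.772). DESeq2 gave the same difference of 0.58 with an adjusted p of 0.0240, the 1 member it called, and the value stayed between 0.47 and 0.64 over 19 alternatives. For NQO1 the difference was 0.36 (95% interval 0.04 to 0.69, adjusted p = 0.811 from edgeR), and for HMOX1 it was 0.68 (95% interval -0.34 to 1.71). Of the 31 members tested in both lines, 13 were positive in both, 5 negative in both and 13 opposite in sign.

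Most members differed in control level between the lines, as most genes did. With DMSO, 23 of 33 members differed between the lines at an adjusted p under 0.05 from edgeR, 7 higher in KELLY and 16 higher in SK-N-AS, but 61.3% of all 17027 genes did so (30.9% higher and 30.4% lower in KELLY). The median log2 difference of the members, KELLY minus SK-N-AS, was -0.64 beside 0.02 over all genes. NQO1 was at 249 to 272 CPM in SK-N-AS and at 21.5 to 25.7 in KELLY with DMSO. The log2 difference was -3.45 ± 0.14 (standard error, edgeR adjusted p = 2.13e-07). NFE2L2 was lower in KELLY by 1.45 on the log2 scale (log2 difference -1.45) and MAFG likewise (-1.26), while KEAP1 (0.38) and BACH1 (-0.12) did not pass.

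The members higher in KELLY were HMOX1 (1.51), PGD (1.36), TKT (0.79), AKR1B1 (1.07), AKR1C2 (1.16), GSTM3 (1.70) and ABCC1 (0.67), as log2 differences. The pentose phosphate genes were thus not alike, since TALDO1 was lower in KELLY (-1.03). The AKR1C paralogs were opposed as well: AKR1C1 was at 30.6 to 37.0 CPM in SK-N-AS and 8.33 to 9.22 in KELLY (-1.90), whereas AKR1C2 was at 1.19 to 1.47 in SK-N-AS and 2.90 to 3.23 in KELLY. TXN (-0.95), PRDX6 (-1.23), BLVRB (-2.74), CBR1 (-1.44), EPHX1 (-1.01), UGDH (-0.72), OSGIN1 (-2.03) and PIR (-0.64) were lower in KELLY. OSGIN1 and TKT lost this call in some fits that left out 1 replicate.

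TXNRD1 had control levels of 349.8 ± 7.09 CPM in KELLY and 338 ± 6.22 in SK-N-AS (SD, n = 3), with a log2 difference of 0.06 (95% interval -0.18 to 0.31). It was 1 of the 10 members that did not pass the test between the lines. After Erastin, HMOX1 in SK-N-AS (14.4 ± 3.48 CPM, SD, n = 3) was at a level that overlapped that of the KELLY controls (10.9 ± 4.48 CPM, SD, n = 3).

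The transporters ABCC2 and ABCC3 were among the members with the widest gaps. ABCC2 was at 11.9 to 13.7 CPM in SK-N-AS and 0.19 to 0.88 in KELLY with DMSO (log2 difference -4.42, standard error 0.38). ABCC3 had 3603 counts over the 3 SK-N-AS DMSO libraries and 3 over those of KELLY, a ratio of 1201 after scaling, with an exact binomial 95% interval of 411 to 5826 that covers counting error only. CBR3 was at 0 in all KELLY libraries and at 2.09 CPM on average in SK-N-AS, which was at least 18.2-fold higher than the level of 3 counts per library. AKR1B10 was at 0 in KELLY and had 5 counts in each SK-N-AS DMSO library.

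**Figure D4:**
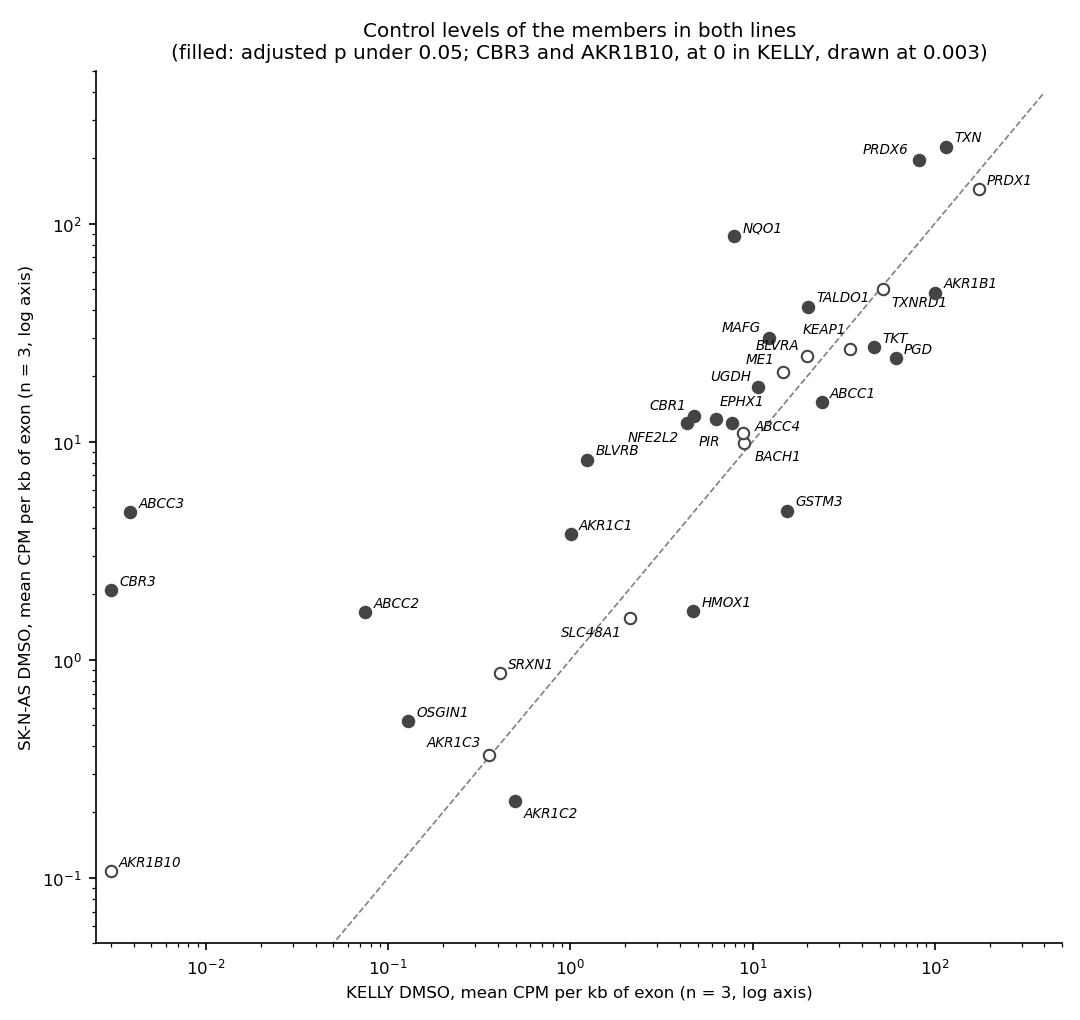
Mean CPM per kb of exon with DMSO (n = 3; both axes log), KELLY on the x axis and SK-N-AS on the y axis; the dashed line marks equal levels and filled points have an adjusted p under 0.05. NQO1, ABCC2, ABCC3 and CBR3 lie far above the line and TXNRD1 on it, at 52.1 and 50.4 CPM per kb.

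Per kb of exon, where genes can be compared, the highest control levels in SK-N-AS were those of TXN (226 ± 28.6 CPM per kb, SD, n = 3), PRDX6 (195 ± 10.04) and PRDX1 (144 ± 12.9), followed by NQO1 (87.6 ± 3.86). In KELLY they were PRDX1 (174 ± 28.2 CPM per kb), TXN (116 ± 40.3), AKR1B1 (100.3 ± 7.14) and PRDX6 (82.1 ± 5.46). Within KELLY the ranges of TXN and AKR1B1 overlapped, as did those of TXN and PRDX6 in SK-N-AS. TXNRD1 was at 52.1 ± 1.06 in KELLY and 50.4 ± 0.93 in SK-N-AS, and HMOX1 at 4.73 ± 1.94 and 1.68 ± 0.36. NQO1 was at 7.92 ± 0.70 in KELLY.

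Other genes, from 4 lists by role with 72 genes in all (1 gene stands in a pair of lists), were read from the same fits. In SK-N-AS 6 of 66 tested had an adjusted p under 0.05 by edgeR, all higher, beside 0.659% of all genes (0.46% higher). In KELLY it was 0 of 67, and 6 at an unadjusted p of at most 0.05, 5 of them higher, beside 2.64% of all genes. By list, the calls in SK-N-AS were 0 of 10 further regulators, 1 of 19 in the thioredoxin, peroxiredoxin and glutaredoxin systems, 1 of 18 in NADPH supply and 4 of 20 other NRF2 targets. The calls in the thioredoxin and NADPH lists were SESN2 and MTHFD2, which are not in the list of NRF2 targets. Which transcription factor raised the called genes was not tested. The 5 with the smallest p were SLC7A11, the cystine carrier of system Xc (log2 fold change 2.01), MTHFD2, a mitochondrial folate enzyme (1.49), SESN2, a sestrin (1.47), GCLM, the modifier subunit of glutamate-cysteine ligase (0.95), and FTH1, ferritin heavy chain (0.57), with adjusted p between 1.55e-06 and 0.0108 from edgeR. In KELLY, GCLM had -0.17 and FTH1 0.23, while SLC7A11 had 2.12 and SESN2 1.70, with adjusted p of 0.410 and 0.342 from edgeR.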

How the data were processed

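The authors trimmed paired-end reads with Trimmomatic, aligned them to GRCh38 (aligner not given in the sources used here), counted them per gene with HTSeq 2.0.3 on GENCODE release 29, and deposited raw counts per gene without normalization. Strandedness and the handling of reads in overlapping genes are not given in the sources used here, so that antisense and paralogous genes stay uncertain.

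Each line was fitted in R 4.3.3 with edgeR 4.0.16 (filterByExpr, TMM, quasi-likelihood test), and p-values were adjusted over all genes tested by Benjamini-Hochberg. The DMSO groups and the interaction were fitted likewise, and an exact binomial interval was given for ABCC3. Names occurring more than once were left out of the fits that joined the lines and kept in those of each line. All 34 members may be named. Of the other listed genes, up to 5 per line with the smallest p among those with an adjusted p under 0.05 were named. Members and lists were chosen with earlier results of these data known. Alternatives were RLE, no low-count filter, protein-coding genes only, DESeq2 1.42.0, all 12 samples in 1 fit, a replicate block, a GC correction (loess, span 0.5), both together, and each replicate left out. Leaving out both KELLY libraries numbered 1, or SK-N-AS DMSO 1 and 3, was chosen after seeing the data. Lengths, GC and coordinates came from GENCODE release 44. Protein identity was planned, and coding sequences were used in its place.

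On simulated data with 200 changed genes, 112 were recovered in KELLY (21 of 88 changed 2-fold) with 8 false calls, and 174 in SK-N-AS (71 of 86 changed 2-fold) with 9. Between the DMSO groups, 141 were recovered (54 of 98 changed 2-fold) with 22 false calls, more than in either line. These counts describe the simulated data only. Recovery and false calls in the real libraries, with their opposed GC trends, were not measured.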

Additional observations from a re-analysis of the deposited data

How the results depend on the processing

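Members past an adjusted p under 0.05 in SK-N-AS numbered 3, beside 0.659% of all genes. They numbered 1 with all 12 samples in 1 fit (TXNRD1; HMOX1 had an adjusted p of 0.0505 from edgeR; 0.253% of all genes), 7 with the GC correction (adding ME1, ABCC3, MAFG and TKT; 6.55%) and 12 with the replicate block and the GC correction together (11 higher, ABCC4 lower; 10.9%), so that calls rose over all genes too. They numbered between 2 and 4 with 1 replicate left out (0.321% to 5.2%). In KELLY they numbered 0 in every alternative run, and members at the threshold of the methods were 1 (2.03% of all genes), 2 without the low-count filter (3.2%) and 1 to 3 with 1 replicate left out (3 without DMSO replicate 2, which were BLVRB, HMOX1 and OSGIN1, where 5.91% of all genes passed). In SK-N-AS, HMOX1 and TXNRD1 passed the threshold of the methods (2.67% of all genes). Without Erastin replicate 2, TXNRD1 did not pass it, while AKR1C2 and AKR1C3 did (2.63%). CBR3 passed it, as lower, without DMSO replicate 2 (2.61%). OSGIN1 passed it without DMSO replicate 1 (3.09%) or Erastin replicate 1 (2.85%). In the interaction DESeq2 called 1 member. Members without overlap numbered 4 to 9 in KELLY and 8 to 17 in SK-N-AS with 1 replicate left out, beside 3 and 8. The share of all genes rose likewise, from 8.54% to between 12.6% and 29.6% in KELLY and from 14.8% to between 19.4% and 35.8% in SK-N-AS. Between the DMSO groups 23 members were called (61.3% of all genes), 21 to 27 with 1 replicate left out (50.4% to 66.6%) and 30 with the GC correction (73.9%). Of 2049 recomputed log2 fold changes, 1872 kept their direction and side of the threshold, 126 were sign changes of members called in neither fit, 39 newly passed, 12 no longer passed, and no called value changed sign.

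By correlation, replicate numbers showed no clear pairing of the samples. Correlations of same-numbered deviations were -0.49, -0.49 and -0.04 in KELLY and -0.01, 0.06 and 0.12 in SK-N-AS. In KELLY no Erastin sample correlated best with the DMSO sample of its own number: Erastin 1 did so with DMSO 2 (0.54), and Erastin 2 and 3 with DMSO 1 (0.44 and 0.21). In SK-N-AS only Erastin 3 correlated best with its own number. The GC trends of the libraries may enter these correlations, so that they cannot exclude a pairing. The replicate block alone gave 0 members in KELLY (0% of all genes) and 3 in SK-N-AS (1.91%, beside 0.659% without the block). It gave 23 between the DMSO groups (52.9%) and 0 in the interaction (0%). Few counts per library limit SRXN1, OSGIN1, ABCC2 and AKR1B10. The KELLY standard errors of OSGIN1 and SRXN1 also fell without the libraries numbered 1, from 0.80 to 0.48 and from 0.71 to 0.43. Those libraries held the lowest control and the highest treated counts of both genes, so that the fall carries no further information.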
